A study of Mus musculus with 2 samples.

Results

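The BCL2 family decides whether a cell releases cytochrome c from its mitochondria and dies by the intrinsic route of apoptosis. Pro-survival members hold the effectors BAX and BAK in check, and BH3-only members, which are made or activated in response to stress or loss of growth factor, bind the pro-survival members and free or activate the effectors. In blood cells that depend on a cytokine, loss of the cytokine is known to raise the BH3-only member BIM, through forkhead transcription factors and loss of ERK signalling, while cytokine signals sustain MCL1 and BCL-XL. The 10 genes examined here were listed by name: the pro-survival genes Bcl2, Bcl2l1, Bcl2l2 and Mcl1, the BH3-only genes Bcl2l11, Bbc3, Pmaip1 and Bmf, and the effector genes Bax and Bak1. Of these, 9 were measured, out of 19935 genes in all. Each of the 9 had 1 probe set that named it alone. No probe set of the annotation used here named Bax, so its expression was not analysed here.

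The expression of these genes was compared in 2 arrays of RNA from Ba/F3, an established mouse pro-B-like cell line that needs interleukin-3 (IL-3) to survive. Both groups expressed BCR-ABL constitutively, a fusion kinase found in chronic myeloid leukaemia, which replaces IL-3 as a survival signal in these cells. Both were kept in RPMI medium with 10% serum, penicillin, streptomycin and glutamine, and both received 5 µM of the ABL kinase inhibitor imatinib for 6 h, per the treatment protocol; 1 group had IL-3 in the medium and the other had none. The comparison asks how cells that IL-3 makes resistant to imatinib differ from cells that will die from it. The titles call both groups live, and whether the line is 1 clone is not given in the sources used here.

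The labels leave doubts that bear on every direction below. The title and source name of the array with IL-3 give IL-3, but its description says that IL-3 was absent, and the source name of the array without IL-3 can be read as lacking imatinib as well. Groups follow the titles. If they were exchanged, each "higher" below would read "lower". If that description were right and the other labels were too, neither array had IL-3. If the array without IL-3 also lacked imatinib, differences due to IL-3 and to imatinib could not be told apart. There was 1 array per group, so no difference has a replicate error or a test, and precision is limited by this number of arrays. The deposited values were on a log scale, taken as log2, each set against an unknown baseline of its probe set. They therefore carry no expression level, and neither levels of different genes nor the detection of a gene could be compared. Each difference is the value with IL-3 minus the value without. For scale, 998 genes had more than 1 probe set, and the differences of probe sets of the same gene varied with a pooled standard deviation (SD) of 0.14, which covers measurement within these arrays only. Over all genes the median difference was 0.04 and the robust spread (scaled median absolute deviation) 0.17.

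Bcl2l11, which encodes BIM, had the widest difference of the 9 members: it was lower with IL-3 by 1.62-fold, and no other member differed by 1.5-fold as deposited. Among the pro-survival genes Mcl1 and Bcl2 were also lower with IL-3, by smaller amounts, and Bcl2l1, which encodes BCL-XL, was slightly higher. The effector gene Bak1 was higher with IL-3 by 1.24-fold. The BH3-only genes Bbc3, Pmaip1 and Bmf lay close to the spread between probe sets or within it.

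The bases before the starts of 3 of these genes are shown. Bcl2l11 and Bbc3 both carry the letters of a forkhead motif there but differed unequally in expression. Bcl2l11 and Mcl1, the pair of members with the lowest differences, share the letters of an ETS motif. The 3 genes were thus picked with their differences known, and no link between motif and expression was tested. Bcl2, the next lowest at -0.23, lacks the ETS letters before its starts, as does the second Bcl2l11 start. The sequences are RefSeq's, on GRCm38.p6, plus strand, 5′ to 3′. Capitals mark the forkhead letters GTAAACA or their reverse complement TGTTTAC, and the ETS letters CCGGAAG or their reverse complement CTTCCGG. The first sequence is the 250 bases before the first of the 2 Bcl2l11 starts in the table (chr2:128125788-128126037). The next is the 250 bases before the Mcl1 start (chr3:95658471-95658720), and the last is a stretch of 30 bases around the motif before 1 of 3 Bbc3 starts (chr7:16310083-16310112).
Bcl2l11: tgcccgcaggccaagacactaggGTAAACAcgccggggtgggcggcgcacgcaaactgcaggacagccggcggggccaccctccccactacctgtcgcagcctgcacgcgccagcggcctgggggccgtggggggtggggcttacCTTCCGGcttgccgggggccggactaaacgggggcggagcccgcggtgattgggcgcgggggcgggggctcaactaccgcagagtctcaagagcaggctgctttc
Mcl1: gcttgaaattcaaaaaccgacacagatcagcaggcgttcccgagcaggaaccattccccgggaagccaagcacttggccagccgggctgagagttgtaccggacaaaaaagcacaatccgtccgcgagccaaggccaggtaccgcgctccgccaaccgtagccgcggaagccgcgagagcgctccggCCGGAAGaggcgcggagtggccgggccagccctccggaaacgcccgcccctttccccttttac
Bbc3: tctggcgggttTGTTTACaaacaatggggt

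In the Bcl2l11 sequence the forkhead letters begin 227 bases before the start and the ETS letters 105 bases before it. The ETS letters of Mcl1 begin 63 bases before its start, and the forkhead letters of Bbc3 167 bases before that start. The RefSeq table held 16 such windows for 9 of the 10 genes, Bax included; Pmaip1 was not used here. Some windows of 1 gene overlap. On either strand, GTAAACA was found in 2 of the 16 windows and in 3.17% of all 32851 windows, and CCGGAAG in 2 of 16 and in 6.91% of all. The E-box CACGTG was found in 2 of 16 windows, 1 of Bbc3 and 1 of Bax, against 6.02% of all. The STAT letters TTCNNNGAA, the AP-1 letters TGACTCA and the CRE letters TGACGTC were in 0 of the 16 windows, against 7.02%, 4.46% and 2.78% of all. A loose NF-kB pattern of 10 letters, of which 5 were free, was in 12 of 16 windows and already in 45.8% of all. A match is a match of letters only.

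Among the BH3-only members, Bcl2l11 (probe set 10475866) had a value of -0.01 with IL-3 and 0.68 without. The array without IL-3 was the higher, with a difference of -0.70, which is 4.83 times the SD between probe sets of a gene, a measure that leaves out the spread between samples. Of all genes, 372 (1.87%) differed as far or farther in this direction. Bcl2l11 is in the 25% of genes with the highest mean of both arrays, where differences scatter more widely (robust spread 0.42), and 4.74% of the genes in that class lay as low or lower. Its difference was the lowest of the 9 members as deposited, after quantile normalization (-0.76) and after a loess trend was subtracted (-0.73). The other alternatives could not change this rank. Median centring and natural logs treat all members alike, and with 1 probe set per member the probe set choices change nothing. The filter on the mean kept 6 members with the same values. If the deposited values are natural logs, the difference was a full 2-fold.

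The other BH3-only members differed little. Bbc3, which encodes PUMA, had -0.22 with IL-3 and -0.23 without, a difference of 0.01 whose sign turned with median centring, quantile normalization and subtraction of a loess trend. Pmaip1, which encodes NOXA, had -0.26 with IL-3 and -0.11 without, a difference of -0.15, about the SD between probe sets. Bmf, whose protein is known as a sensor of cytoskeletal stress and lost attachment, had -0.13 with IL-3 and -0.05 without, a difference of -0.09. Bcl2l11 and Bbc3 are known forkhead targets and Bbc3 and Pmaip1 known p53 targets. The differences of Bcl2l11 and Bbc3 were not alike: their gap, Bcl2l11 minus Bbc3, was 0.91 without IL-3 and 0.21 with IL-3. Bbc3 lies in the 25% of genes with the lowest means, and whether it was detected cannot be told. The part of forkhead factors in either value was not tested.

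Among the pro-survival members, Mcl1, which encodes a short-lived protein that blood cells depend on, had 0.78 with IL-3 and 1.09 without. Its difference of -0.32 makes it 1.25-fold lower with IL-3. Bcl2, the founding member, had 0.77 with IL-3 and 1.01 without, a difference of -0.23. Both lie in the class of genes with the highest means, in which 16.6% and 21.0% of genes differed as far in this direction. Bcl2l1 had 0.34 with IL-3 and 0.18 without, a difference of 0.16 towards higher expression with IL-3. Bcl2l2, which encodes BCL-W, had 0.07 with IL-3 and 0.13 without, and its difference of -0.05 is within the SD between probe sets. Mcl1 and Bcl2 were thus lower with IL-3, and Bcl2l2 only within that SD. Bcl2l1 was higher by about that SD, and 24.7% of all genes were as far or farther higher. A difference below 0 was found in 3 of these 4 genes and in 40.1% of all genes.

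The effector gene Bak1 had 0.91 with IL-3 and 0.61 without, a difference of 0.30. Its array with IL-3 was the higher, opposite to Bcl2l11. In its class of genes with the highest means, 32.0% of genes were as far or farther higher with IL-3. Its difference was 0.18 after quantile normalization and 0.08 after a loess trend was subtracted.

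**Figure D1:**
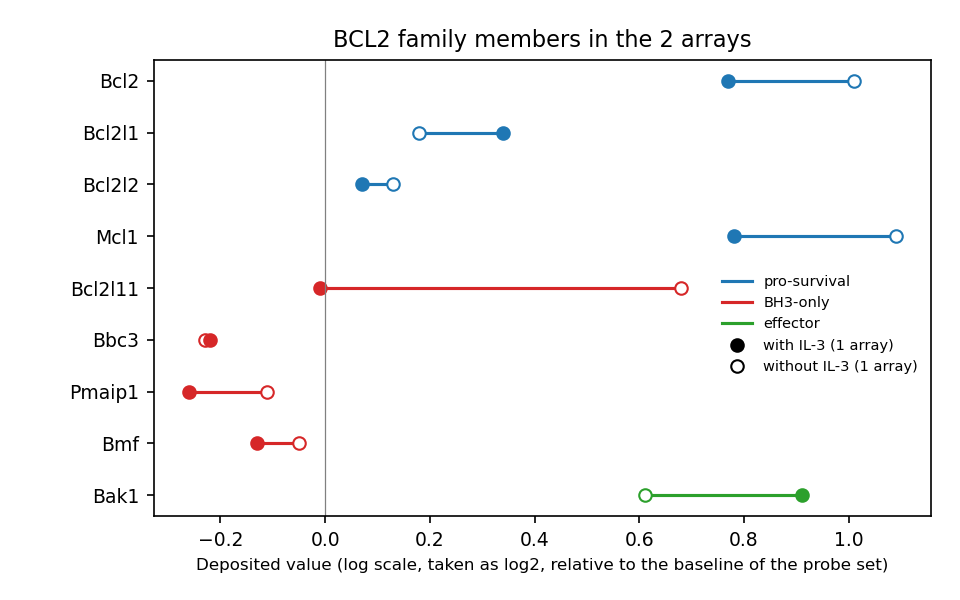
Deposited value of each of the 9 measured BCL2 family genes (horizontal axis, log scale taken as log2, relative to the baseline of each probe set) with IL-3 (filled points, 1 array) and without IL-3 (open points, 1 array); colour gives the role and a line joins the arrays. The longest line is that of Bcl2l11, from 0.68 without IL-3 to -0.01 with IL-3, and only Bcl2l1, Bbc3 and Bak1 lie farther right with IL-3.

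As a group, 0 of 9 members passed 2-fold towards higher values with IL-3 and 0 towards lower ones, where 0.441% and 0.657% of all genes did. At the lower rule of 1.5-fold, 0 members were higher and 1 was lower, Bcl2l11, where 3.52% of all genes were higher and 2.71% lower. In the class of the 25% of genes with the highest means, which holds Bcl2, Mcl1, Bcl2l11 and Bak1, 12.8% of genes were at least 1.5-fold higher and 6.68% at least 1.5-fold lower. A single member past the rule describes that gene and not the family. The difference was below 0 in 6 of 9 members and in 40.1% of all genes, and the members' median was -0.09, against 0.04 over all genes. By role, the medians were -0.14 for the 4 pro-survival genes and -0.12 for the 4 BH3-only genes. Over all genes the split between directions depended on the scaling: of the genes past 1.5-fold, 56.5% were higher with IL-3 as deposited (701 higher, 540 lower), 42.7% after quantile normalization (480 and 645) and 30.8% after the loess trend was subtracted (336 and 755). Of those past 2-fold, 40.2% were higher as deposited, 27.8% after quantile normalization and 11.6% after the loess step.

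**Figure D2:**
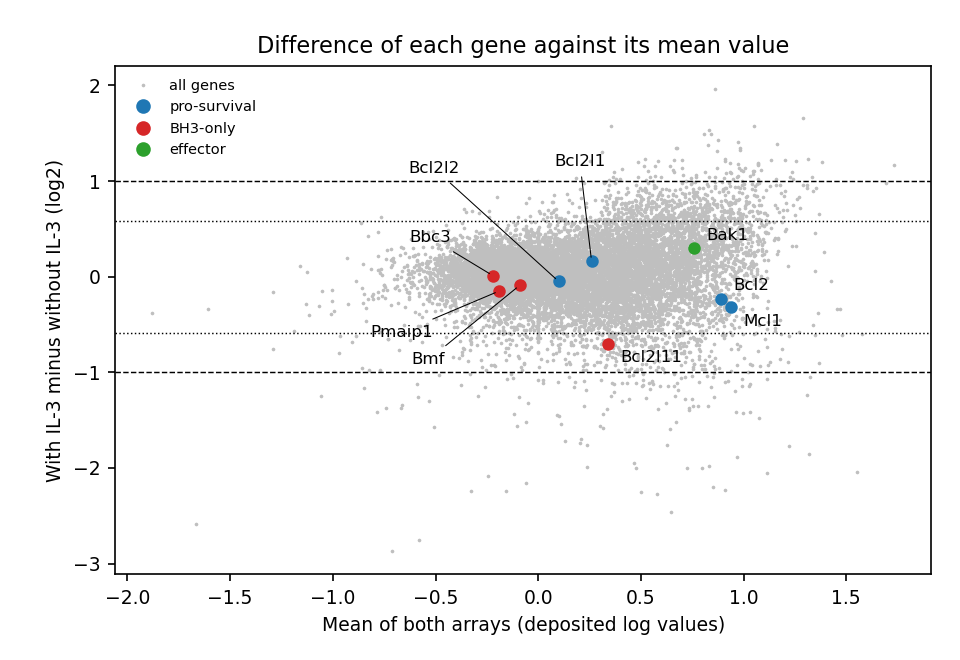
Difference with IL-3 minus without IL-3 (vertical axis, log2) against the mean of both arrays (horizontal axis, deposited log values) for 19935 genes (grey) and the 9 measured members (coloured by role); dashed lines mark 2-fold and dotted lines 1.5-fold. Of the members only Bcl2l11, at -0.70, lies beyond a dotted line. The grey cloud is widest on the right, where Bcl2, Mcl1 and Bak1 lie. Bcl2l11 is with these 3 in the 25% of genes with the highest means.

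The balance between the opposing roles was planned as the difference of the role means, given last. The gap between Bcl2l11 and each other member within an array was added, of which only the change between arrays can be read. Bcl2l11 had the lowest difference of the members, so each of these gaps had to change in the same direction. Relative to Bcl2l1, Bcl2l11 was 1.81-fold lower with IL-3 than without, and relative to Bcl2l2 1.56-fold lower. Relative to Mcl1 and Bcl2 the change was smaller, 1.3-fold and 1.38-fold lower, since these pro-survival genes were themselves lower with IL-3. After the loess trend was subtracted, Bcl2l11 differed by -0.73, Mcl1 by -0.63 and Bcl2 by -0.53, so both changes were smaller still. With the same step Bcl2l1, Bcl2l2 and Bak1 differed by 0.14, -0.05 and 0.08. As deposited, the widest change was against Bak1, an effector gene and not of the opposing role, relative to which Bcl2l11 was 2-fold lower. Averaged over roles the balance differed less: the mean of the 4 BH3-only genes minus that of the 4 pro-survival genes was -0.65 with IL-3 and -0.53 without. The SD between probe sets describes single probe sets and gives no scale for this change of -0.12 between means. The change was 0.00 after the loess trend was subtracted.

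**Figure D3:**
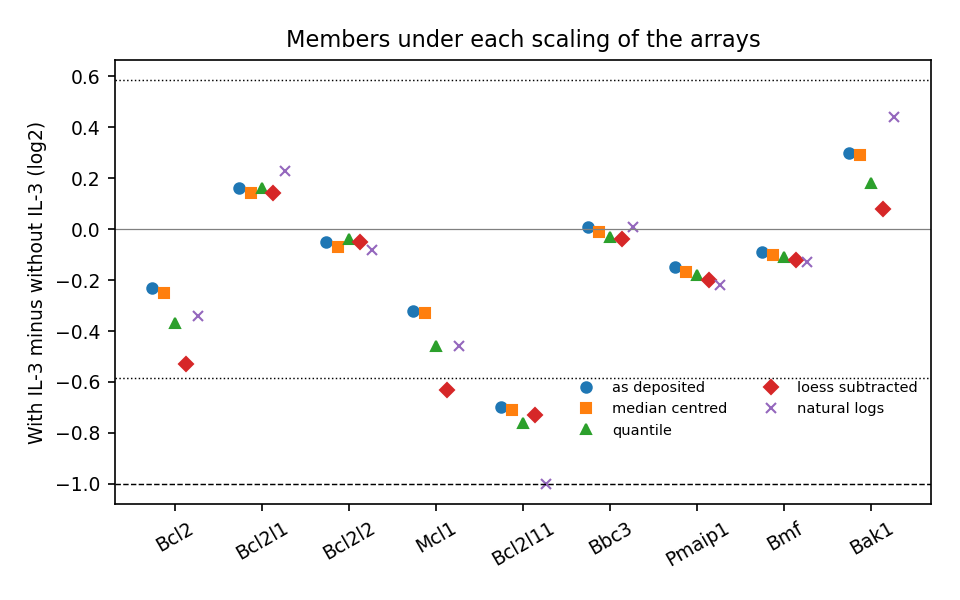
Difference with IL-3 minus without IL-3 (vertical axis, log2) of each measured member under 5 scalings of the same 2 arrays (marker shapes); dotted lines mark 1.5-fold and the dashed line 2-fold lower. Bcl2l11 stays between -0.76 and -0.70 under the scalings as log2 and reaches the dashed line as natural logs, whereas Mcl1 moves from -0.32 as deposited to -0.63 with the loess trend subtracted and Bcl2 from -0.23 to -0.53.

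Of 17 relatives outside the 10 genes, 14 were measured, with a median difference of 0.07; 9 were above 0 and 5 below. At least 1.5-fold higher with IL-3 was 1 of the 14, and 0 were as far lower, against 3.52% and 2.71% of all genes. This was Bnip3, which encodes a mitochondrial protein known for hypoxia and mitophagy. It had 1.65 with IL-3 and 0.48 without, 2.26-fold higher with IL-3. Its other probe set differed by 0.44, and the difference was 0.79, under 2-fold, with the loess trend subtracted, so its size depends on both choices. Bnip3l, its close relative, differed by 0.20. Bad, a BH3-only gene whose protein survival kinases keep phosphorylated, had -0.07 with IL-3 and 0.29 without and was 1.29-fold lower with IL-3, the same direction as Bcl2l11. The BH3-only genes Bid, Bik and Hrk differed by 0.15, -0.07 and 0.02, the last lying between -0.01 and 0.03 over the alternative settings. The effector-like gene Bok differed by 0.06. Of the pro-survival relatives, Bcl2l10 differed by 0.15 and Bcl2a1c by -0.02. Bcl2a1c belongs to a group of near-identical genes, so its value is uncertain, and 3 probe sets that name Bcl2a1a, Bcl2a1b, Bcl2a1c and Bcl2a1d together were assigned to none. Bcl2l12 differed by 0.23, Bcl2l13 by -0.14, Bcl2l14 by -0.17, Bcl2l15 by 0.09 and Becn1, an autophagy gene with a BH3 domain, by 0.07.

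Downstream of the family, 18 of 20 genes of the mitochondrial route were measured. Their median difference was 0.15, or 0.03 after a loess trend was subtracted. Of the 18 genes 12 were above 0 and 6 below, where 40.1% of all genes were below 0. At least 1.5-fold lower with IL-3 were 0 of the list (2.71% of all genes), and 4 were at least 1.5-fold higher (3.52%). These were Cycs, the cytochrome c gene (1.06 with IL-3 against 0.36 without, 1.63-fold), Vdac1, the channel of the outer mitochondrial membrane (1.65-fold), Aifm1, a flavoprotein of the intermembrane space (1.63-fold), and Birc5, the survivin gene of dividing cells (1.64-fold). Other probe sets of Cycs differed by 0.63 and 0.12, and processed copies of this gene exist, so its value is uncertain. All 4 lie in the class with the highest means, where 12.8% of genes were as far higher, and after the loess trend was subtracted 1 gene of the list was 1.5-fold higher (Birc5, 0.63) and 1 was 1.5-fold lower (Xiap, a caspase inhibitor gene, -0.78); both were named after their values were seen. The nuclease genes Dffa and Dffb, with the smallest differences of the list, were at 0.10 and -0.06.

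Among regulators of BCL2 proteins, 23 of 30 were measured, with a median of 0.10, or -0.05 after the loess step. The survival kinase genes Pim2 (0.77 with IL-3 against -0.08 without, 1.80-fold) and Pim1 (1.01 against 0.26, 1.68-fold) were the 2 at least 1.5-fold higher, and 0 were as far lower, against 3.52% and 2.71% of all genes. Both lie in the class with the highest means, where 12.8% of genes were as far higher. After the loess step Ppp3ca, a calcineurin gene, was 1.5-fold lower (-0.60), as it was with the values as natural logs. PIM kinases are known to phosphorylate BAD. Tmbim6 and Btrc were nearest to 0, at -0.01 and -0.05. Among transcription regulators of BCL2 genes, 20 of 22 were measured, with a median of -0.12 and 13 below 0. Jun, a stress-induced factor known to act on Bcl2l11, was the 1 gene at least 1.5-fold lower with IL-3 (0.33 against 1.26, 1.90-fold), and 0 were as far higher, against 2.71% and 3.52% of all genes. After the loess step 2 were as far lower, Jun and Spi1 (-0.60), and as natural logs 2 were lower (Jun and Runx1) and 1 higher (E2f1), all named after their values were seen. Stat5a and Foxo1 were nearest to 0, at 0.01 and 0.02. The forkhead genes Foxo3 and Foxo4 differed by -0.08 and -0.29, the latter near the size of the difference of Mcl1; their proteins are known to be controlled by phosphorylation, which an array does not measure. Trp53 was not analysed here.

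**Figure D4:**
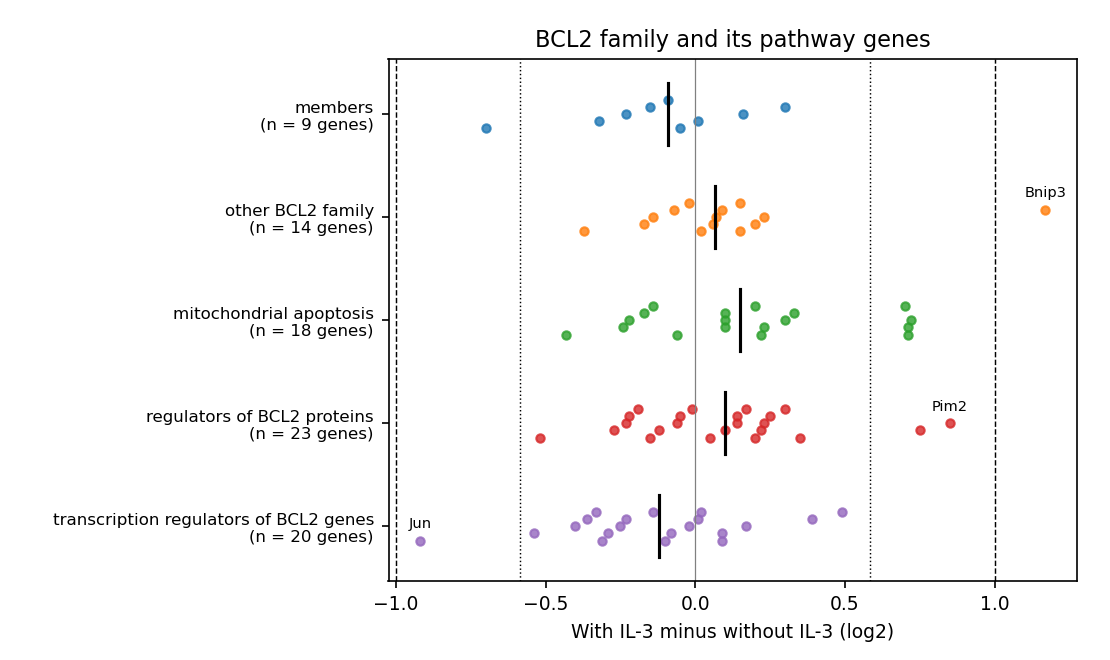
Difference with IL-3 minus without IL-3 (horizontal axis, log2) of each measured gene in the BCL2 family and in the lists of relatives and pathway genes (1 point per gene, spread vertically for view); black bars are list medians, dotted lines 1.5-fold and dashed lines 2-fold. The members' median of -0.09 lies below 0, that of the mitochondrial list at 0.15, and Bnip3 at 1.17 is the only point beyond a dashed line.

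Some markers of blood cell types differed between the arrays and others did not. The marker lists were chosen with earlier results of these data known, so their counts beside all genes cannot be read as an enrichment. Of the granulocyte markers, 5 of 12 lay 2-fold or more below the array without IL-3 (Ngp, Prg2, Epx, Ear6 and Itgam), where 0.657% of all genes did. The list's median was -0.11 and its mean was -0.59 with IL-3 and 0.29 without. In the same list S100a9, Mpo and S100a8 were above 0, at 0.38, 0.17 and 0.16, and Elane was at -0.07. Of the mast cell and basophil markers, 3 of 12 lay 2-fold or more lower with IL-3 (Fcer1a, Cpa3 and Cma1), against 0.657% of all genes. In this list 5 of 12 were above 0, Tpsb2 the farthest at 0.19, and 7 were below, where 40.1% of all genes were below. The median of these 12 was -0.15, with list means of -0.18 with IL-3 and 0.32 without. Of the markers of Ba/F3 and B-lineage cells, 12 of 13 were measured, with a median of 0.06; 0 passed 2-fold, but Ptprc, the CD45 gene, was 1.66-fold lower with IL-3. Among 7 macrophage and 6 measured T cell markers 0 passed 2-fold, and Adgre1 and Cd3g were 1.73-fold and 1.74-fold lower with IL-3. Ptprc, Adgre1, Cd3g and the mast cell marker Ms4a2 (1.89-fold lower with IL-3) thus differed as far as Bcl2l11 or farther. They, Tpsb2 and the granulocyte markers within 2-fold were named after their values were seen. Whether any marker is absent cannot be told from values relative to a baseline. The part of these genes in the lower Bcl2l11 value with IL-3 was not tested, and fewer cells of a type and less RNA per cell cannot be told apart in bulk RNA.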

How the data were processed

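RNA of 2 samples was measured on 2 mouse Gene 1.0 ST arrays, 1 per group, after sense-strand cDNA labelling with biotin, per the labels' protocols. The authors' deposited values cover 28815 probe sets, with log2 assumed as their scale and each probe set centred on a baseline, as the values themselves show. How they were summarised and normalized, the log base and the baseline: not given in the sources used here.

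Gene names came from the platform annotation (21780 with 1 gene symbol, 1605 with several, 5430 with none), and only those with 1 symbol were used. Per gene the probe set of highest mean over both arrays was taken, with no filter or further scaling. Differences were computed in Python 3.11.15 with pandas 2.3.3 and statsmodels 0.14.6, and the steps were tested on simulated data. A fold rule of 2-fold and a lower one of 1.5-fold stand in for tests, since each group had 1 array. Alternatives were median centring, quantile normalization, a loess trend (span 0.3) subtracted, other probe set choices, natural logs and a filter on the mean.

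The members and gene lists were chosen with earlier results of these data known. Genes named are all measured members and relatives, list genes at least 1.5-fold different with the 2 smallest differences per list, and markers at least 2-fold different. Foxo3 and Foxo4 were added after their values were seen. A planned search of member proteins was not run. Promoter windows were searched for exact letters on both strands of the 250 bases before each start.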

Additional observations from a re-analysis of the deposited data

How the results depend on the processing

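Of 370 values recomputed under 7 alternatives fixed with the design, 342 moved by less than the SD between probe sets (counts by at most 1.5 times), 28 moved farther and 0 of the values past 2-fold turned sign. The count of members at least 2-fold different was 1 (Bcl2l11) if the values are natural logs and 0 otherwise. The count at least 1.5-fold different was 2 with the loess trend subtracted (Bcl2l11 and Mcl1). The count of relatives at least 1.5-fold higher was 0 with the probe set of lowest mean, which takes the other Bnip3 probe set. The balance of BH3-only against pro-survival genes was -0.58 when only genes with a mean of at least the median were kept, because 6 members remained and Bcl2l11 was the only BH3-only gene among them. With the same filter the granulocyte markers at least 1.5-fold lower went from 5 to 1 and the mast cell and basophil median from -0.15 to -1.01. Splits of the directions over all genes are given with the members' counts. No paired analysis was possible because each group has 1 array and no result comes from a test, and no replicate could be left out.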
